A study of Mus musculus with 8 samples.

Results

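This report describes H3K27Ac, an acetylation of histone H3 found at active promoters and enhancers, at the genes of the ZEB, SNAI, TWIST and MYC transcription factors in the neonatal mouse heart. The 8 genes are *Zeb1*, *Zeb2*, *Snai1*, *Snai2*, *Twist1*, *Myc*, *Mycn* and *Mycl*, and a peak was taken as theirs when its centre lay nearest to a curated RefSeq transcription start of the gene. This rule found 45 peaks, of 45987 in the authors' table, at 7 of the 8 genes, and no peak at *Mycl*. Of the peaks in the table, 7 lie on unplaced sequences, which leaves 45980 placed peaks as the comparison. ChIP-Seq was performed on ventricles at postnatal day 7 from 2 control hearts and 2 *Arid1a cKO* hearts, each with an input library, for 8 libraries in all. Controls were littermates with floxed *Arid1a* alleles (f/f) and no Cre. *Arid1a cKO* hearts carried the same alleles and the aMHC-Cre transgene, on a C57B/6J background. This Cre is active in cardiomyocytes, so the other cells of the ventricle keep *Arid1a*, a subunit gene of the SWI/SNF chromatin remodelling complex.

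ZEB and SNAI proteins are zinc finger repressors and TWIST1 is a basic helix-loop-helix factor. Together they drive epithelial to mesenchymal transition, by which endocardial cells form the cushions of the heart valves and epicardial cells enter the heart wall. MYC, MYCN and MYCL pair with MAX to activate genes of growth and cell division, and MYCN is needed for the growth of the embryonic myocardium. All of these factors bind forms of the E-box, a short DNA motif.

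Each value is the authors' group mean for a peak, as log2 of normalized reads, and each difference is *Arid1a cKO* minus control. The table holds group means, with no value for a single heart. The spread between hearts and the depth of each library are therefore unknown, no difference was tested, and no replicate check could be run here. Whole ventricles were used, so fewer cells of a type and less mark per cell cannot be told apart. The lowest group mean of a member peak was 4.76 reads, above the floor of 3 reads under which a fold would be a bound. At *Arid1a* itself, the peak over the start had a log2 level of 10.65 in controls and 10.70 in *Arid1a cKO*. This peak lies at the start and does not check the deletion.

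*Snai1*, *Snai2* and *Twist1* had more H3K27Ac in *Arid1a cKO* hearts at each of their 10 peaks, with a median difference of 0.51. *Twist1* gave 1 of these peaks. The ZEB genes were split, with 15 of 30 peaks above 0 and 15 below, and the MYC genes had 4 of 5 peaks above 0. Over the 45 member peaks, 29 lay above 0, against 50.6% of all placed peaks, and their median was 0.21, against 0.01. Of the member peaks, 3 were at least 2-fold lower, against 10.6% of all placed peaks, and 1 was at least 2-fold higher, against 4.57%. The lower ones were at *Zeb2* (2 peaks) and *Zeb1* (1 peak), and the higher one was at *Snai1*. The other 41 member peaks differed by less than 2-fold. Member peaks had a median width of 1888 bp and a median log2 level over all hearts of 5.44, near the 1781 bp and 5.47 of all placed peaks.

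**Figure D1:**
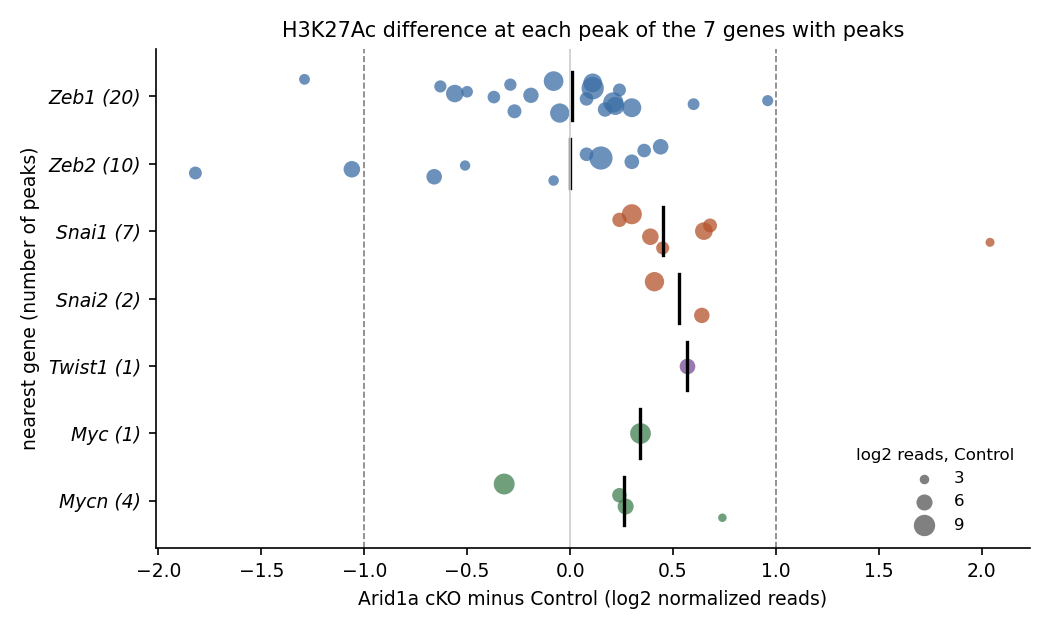
Difference in H3K27Ac (*Arid1a cKO* minus control, log2 normalized reads) at each of the 45 peaks, by nearest gene. Each point is a peak, its size shows the control level, black bars are gene medians and dashed lines mark 2-fold. All *Snai1*, *Snai2* and *Twist1* points lie right of 0, and the 3 points beyond the left line belong to *Zeb1* and *Zeb2*.

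The peaks over the transcription starts are described first, since they mark the promoters. All 7 genes with peaks had such a peak, and 6 of the 7 were higher in *Arid1a cKO*, while 50.1% of the 12022 peaks over any curated start lay above 0. Their differences ran from −0.32 to 0.57, with a median of 0.30. None reached 2-fold, which was rare at starts: of the 12022 peaks, 139 were at least 2-fold higher and 204 lower. Per kb of peak in controls, *Zeb1* had the highest level of normalized reads at its start (97.2), followed by *Mycn* (80.7), *Myc* (73.7), *Zeb2* (71.7) and *Snai2* (65.2). *Snai1* (39.9) and *Twist1* (25.4) had the lowest, and the median over all peaks that cover a start was 62.3. In *Arid1a cKO* the same 2 genes were lowest, at 49.1 and 37.7 reads per kb, and *Mycn* had moved from the second place to the fifth at 64.6. Whether neighbours in this order differ beyond the spread of hearts was not tested.

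**Figure D2:**
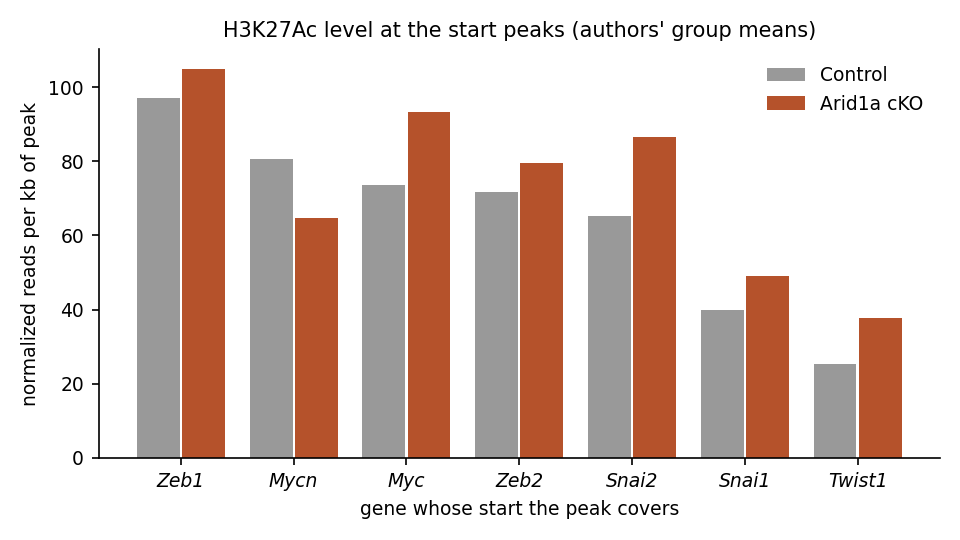
Level of H3K27Ac at the peak over each gene's start, as normalized reads per kb of peak (authors' group means, bars from 0) in control and *Arid1a cKO* hearts. *Mycn* is the gene with the lower bar in *Arid1a cKO*, 64.6 against 80.7.

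*Snai1* encodes a repressor of E-cadherin that acts early in epithelial to mesenchymal transition. It lies on chromosome 2 of mm10 from 167538195 to 167542814 on the plus strand, and 7 peaks were assigned to it. The peak over its start (chr2:167538037-167545457) spans the whole gene and had a log2 level of 8.21 in controls and 8.51 in *Arid1a cKO*. The other 6 lay downstream, between genes, at 8.55 to 45.4 kb from the start. All 7 were higher in *Arid1a cKO*, by 0.24 to 2.04, and their summed reads were 587 in controls and 801 in *Arid1a cKO* (difference 0.45). With every peak within 50 kb of the start, 10 peaks in all, the summed difference was 0.17, and with predicted transcripts included, which left 1 peak at *Snai1*, it was 0.30. The strongest of the downstream peaks (chr2:167564470-167568805) had 118 reads in controls and 185 in *Arid1a cKO*, a difference of 0.65.

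The largest difference of any member peak was 39.9 kb downstream of the *Snai1* start (chr2:167577180-167579030). It had 6.92 reads in controls and 28.4 in *Arid1a cKO*, a 4.11-fold higher level (log2 2.79 and 4.83). This peak was among the 10 member peaks with a mean level of 18.1 reads or less, and of the 11559 placed peaks that low 12.5% were at least 2-fold higher and 16.5% at least 2-fold lower. It held 7 matches to CAGGTG, the E-box bound by ZEB and SNAI proteins, 1 to CAGATG, bound by TWIST with E proteins, and 0 to CACGTG, bound by MYC with MAX, with each motif read on both strands. Of its bases, 23.0% are repeats in the reference, against a median of 14.2% over all peaks. The 250 bases before the *Snai1* start (GRCm38.p6 RefSeq promoter, plus strand, chr2:167537945-167538194) hold 1 match to CAGGTG, in capitals and as CACCTG, its form on the other strand, where 17.2% of 32851 promoter windows of this length hold at least 1. Its start peak begins inside this window.
*Snai1* promoter: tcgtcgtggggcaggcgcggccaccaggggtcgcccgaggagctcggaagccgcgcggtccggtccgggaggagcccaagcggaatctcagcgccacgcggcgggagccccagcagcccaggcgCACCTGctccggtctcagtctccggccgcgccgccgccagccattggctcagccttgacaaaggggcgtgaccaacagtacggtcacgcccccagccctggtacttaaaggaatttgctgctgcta

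*Snai2* encodes the related repressor SLUG, on chromosome 16 from 14705852 to 14709395 on the plus strand. Its start peak (chr16:14704500-14707940) had 224 reads in controls and 298 in *Arid1a cKO*, a log2 difference of 0.41. A second peak 6.71 kb downstream of the start, between genes (chr16:14711487-14713628), had 51.6 and 80.4 reads, a difference of 0.64. Together they held 8 matches to CAGGTG.

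*Twist1*, which acts in the cushion mesenchyme and in fibroblasts, had a single peak on chromosome 12 (chr12:33956651-33958845). It covers the start and its centre lies in the untranslated part of the first exon. The authors' means were 55.7 reads in controls and 82.7 in *Arid1a cKO*, a log2 difference of 0.57, the largest among the start peaks. The peak held 0 matches to each of the 3 E-boxes, and 67.1% of its bases are G or C, against a median of 48.1% for all peaks. The 250 bases before the start (GRCm38.p6, plus strand, chr12:33957421-33957670) lie inside the peak and are shown as the *Twist1* region with the mark; they have no capitals, since no E-box was found.
*Twist1* promoter: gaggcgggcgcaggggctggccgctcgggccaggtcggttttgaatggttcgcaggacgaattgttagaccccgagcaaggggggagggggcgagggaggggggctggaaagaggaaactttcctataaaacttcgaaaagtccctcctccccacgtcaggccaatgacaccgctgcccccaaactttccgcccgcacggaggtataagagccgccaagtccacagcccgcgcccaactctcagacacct

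*Zeb2* encodes a repressor that acts in neural crest and mesenchymal cells. The gene lies on chromosome 2 from 44983512 to 45117442 on the minus strand and has 7 curated starts. Of its 10 peaks, the 5 within 100 kb of a start were all higher in *Arid1a cKO*, by 0.08 to 0.44, and the 5 that lay farther upstream were all lower, with differences from −1.82 to −0.08. Summed reads of the near peaks were 1317 in controls and 1483 in *Arid1a cKO*, a log2 difference of 0.17. Those of the far peaks were 172 and 93.6, a difference of −0.88. The near peaks include the strongest of all member peaks, a domain of 16282 bp over the starts (chr2:45102298-45118579), at a log2 level of 10.19 in controls and 10.34 in *Arid1a cKO*. Of all placed peaks, 181 were as wide or wider. The highest difference at *Zeb2* (0.44) was at an intronic peak, 42.9 kb inside the gene (chr2:45066363-45068319), with 53.8 and 73.0 reads.

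The far peaks lay between genes, at 118 to 171 kb before the nearest *Zeb2* start. The lowest difference of any member peak was among them, at 129 kb (chr2:45245864-45246757), with 21.9 reads in controls and 6.19 in *Arid1a cKO*, 3.53-fold lower (log2 4.45 and 2.63, difference −1.82). This peak is also among those with a mean level of 18.1 reads or less. Its neighbour at 122 kb (chr2:45238832-45240855) had 76.1 and 36.5 reads, 2.08-fold lower (difference −1.06). The other 3 had differences of −0.51, −0.66 and −0.08. Of the 4680 placed peaks over 100 kb from any start, 15.7% were at least 2-fold lower and 48.2% lay below 0. All 5 far peaks share a stretch of chromosome and are not independent of each other.

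The 2 called peaks are shown because they hold the lower mark. The 300 bases with the most E-box matches in the peak at 122 kb (GRCm38.p6, plus strand, chr2:45239977-45240276) hold 2 matches to CACGTG and 1 to CAGGTG, in capitals. That window was picked for its matches, so its count has no like share in other peaks. The whole peak at 129 kb held 0 matches to each E-box, and its central 300 bases (GRCm38.p6, plus strand, chr2:45246160-45246459) have no capitals. In the central 300 bases, 0 of the 45 member peaks held CACGTG, against 4.90% of all placed peaks, and 11.1% held CAGGTG, against 17.7%. CAGATG was in 40.0% of member peaks there, against 20.3%, and any of the 3 in 48.9%, against 37.8%.
*Zeb2* peak at 122 kb: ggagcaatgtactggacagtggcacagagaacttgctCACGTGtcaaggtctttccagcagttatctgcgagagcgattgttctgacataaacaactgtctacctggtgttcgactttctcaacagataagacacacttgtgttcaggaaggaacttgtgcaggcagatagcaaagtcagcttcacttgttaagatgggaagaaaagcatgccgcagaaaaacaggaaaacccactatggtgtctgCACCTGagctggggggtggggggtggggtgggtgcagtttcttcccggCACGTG
*Zeb2* peak at 129 kb: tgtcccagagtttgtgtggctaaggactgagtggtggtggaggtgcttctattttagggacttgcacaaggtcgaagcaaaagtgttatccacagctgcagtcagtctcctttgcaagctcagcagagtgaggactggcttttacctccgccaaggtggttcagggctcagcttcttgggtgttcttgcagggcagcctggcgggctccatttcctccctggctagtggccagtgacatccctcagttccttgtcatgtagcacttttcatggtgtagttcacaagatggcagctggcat
The 250 bases before the most upstream start (GRCm38.p6, minus strand, chr2:45117443-45117692) lie inside the domain over the starts and hold 0 matches to the 3 E-boxes.
*Zeb2* promoter: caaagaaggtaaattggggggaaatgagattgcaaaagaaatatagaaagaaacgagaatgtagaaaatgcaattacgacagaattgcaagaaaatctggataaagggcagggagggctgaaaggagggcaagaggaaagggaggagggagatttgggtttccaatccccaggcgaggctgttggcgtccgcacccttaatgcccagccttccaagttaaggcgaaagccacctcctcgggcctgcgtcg

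Other genes divide the *Zeb2* region by the nearest start. No peak was nearest to *Zeb2os*, the antisense RNA gene that starts inside the domain. The microRNA gene *Mir5129*, in a *Zeb2* intron, took 7 peaks, with a median difference of 0.16 and values from −0.36 to 1.65. The noncoding gene *1700019E08Rik*, upstream of the far peaks, took 14 peaks, of which 11 were above 0, with a median of 0.42. These last 2 genes were chosen after their values were seen. The median at *Zeb2*, 0.00 over its 10 peaks, depended on this division. It was 0.17 over 32 peaks with protein-coding genes alone, 0.26 over 4 peaks with predicted transcripts included or with every peak within 50 kb, and 0.30 over the 5 peaks within 100 kb. Without peaks at or under a mean of 18.1 reads it was 0.15 over 7 peaks.

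*Zeb1*, the other ZEB gene, encodes a repressor that acts with ZEB2 on epithelial genes. It had 20 peaks, a number that 0.603% of the 15765 genes with peaks reached, and they lay on chromosome 18. Its start peak, from 5590113 to 5598097, had a log2 level of 9.60 in controls and 9.71 in *Arid1a cKO*, and its centre lies in an intron. This was also its strongest peak, and the antisense noncoding gene *Gm10125* starts inside it too. *Zeb1* itself spans 5591860 to 5775468 on the plus strand. Among the 6 peaks in its introns other than the start peak, 4 were lower in *Arid1a cKO*, with a median of −0.28 and summed reads of 246 in controls and 201 in *Arid1a cKO*. The lowest of these, at 103 kb inside the gene, had 111 and 75.1 reads (difference −0.56).

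The 8 *Zeb1* peaks beyond the 3′ end, between genes at 211 to 265 kb from the start, had the opposite balance. Of these, 6 were higher, the median was 0.21, and summed reads were 970 in controls and 1100 in *Arid1a cKO*. The highest difference at *Zeb1* was there, from 5802939 to 5804092, with log2 levels of 3.66 and 4.62 (0.96). Upstream, 4 of 5 peaks were lower, all within introns of the antisense noncoding gene *Gm10125*, to which no peak was nearest. The lowest, from 5509884 to 5510737, had 11.6 reads in controls and 4.76 in *Arid1a cKO*, 2.45-fold lower, and is likewise among the peaks with a mean of 18.1 reads or less. Of all peaks that low, 16.5% were at least 2-fold lower. Over all its peaks *Zeb1* had summed reads that differed by 0.07. Its median of 0.01 was −0.18 with peaks within 100 kb alone, −0.09 with every peak within 50 kb and −0.37 with predicted transcripts included. It was 0.11 without peaks at or under a mean of 18.1 reads, and 0.01 with protein-coding genes alone.

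**Figure D3:**
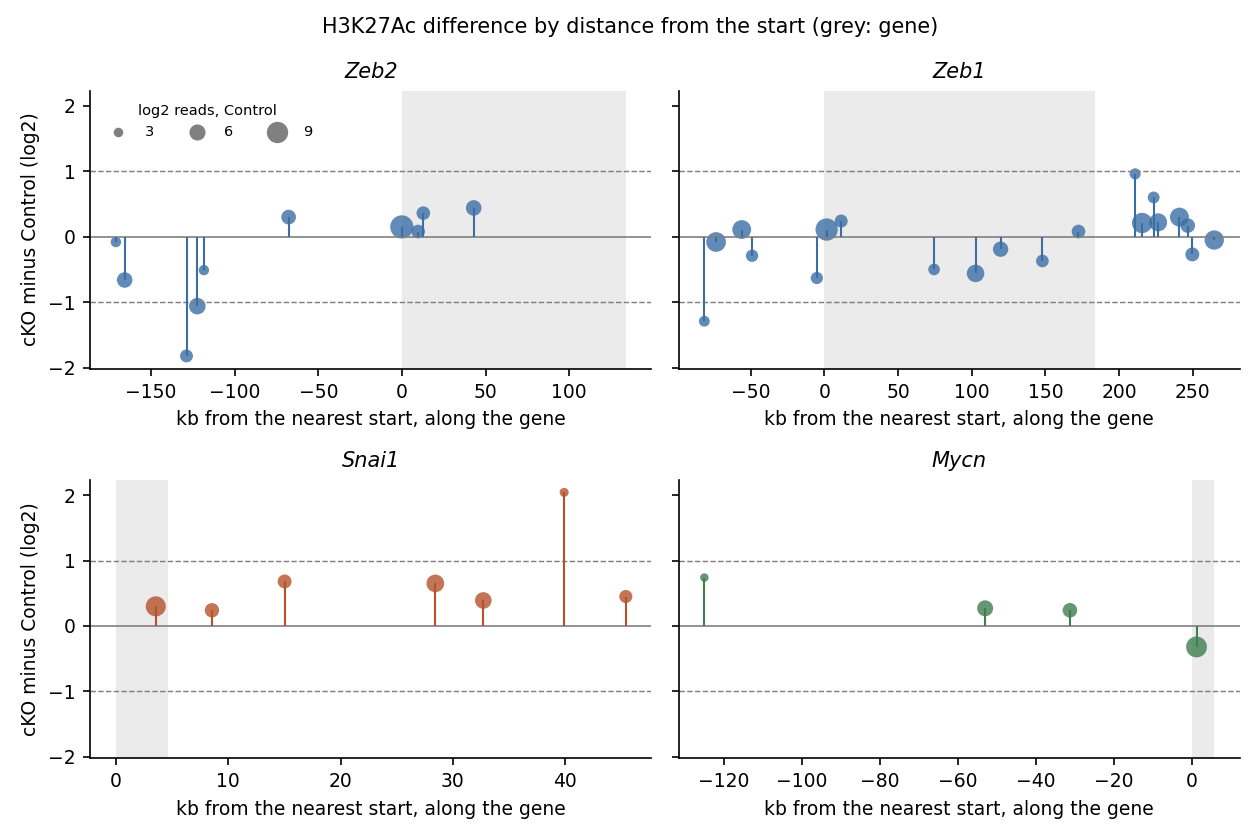
Difference in H3K27Ac (*Arid1a cKO* minus control, log2) by distance of the peak centre from the nearest start of the gene, in kb along the direction of transcription, for the 4 genes with more than 2 peaks. Point size shows the control level, grey marks the length of the gene drawn from 0, and dashed lines mark 2-fold. *Zeb2* points farther than 100 kb upstream lie below 0 and all *Snai1* points lie above 0.

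Among the MYC genes, *Myc* had a single peak over its start on chromosome 15 (chr15:61983168-61988539), with 396 reads in controls and 501 in *Arid1a cKO*, a difference of 0.34. *Pvt1*, the noncoding gene downstream of *Myc*, took 6 peaks. The peak over its start differed by 0.36 and those 14.6 and 17.5 kb inside it by 0.51 and 0.56, while the 3 farther in were below 0, at −0.08 to −0.42. With protein-coding genes alone, 21 peaks were assigned to *Myc*, their median difference was 0.07 and their summed reads differed by 0.10.

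*Mycn* lies on chromosome 12 from 12936093 to 12941836 on the minus strand. Its start peak (chr12:12938028-12943254) was the only member start peak that was lower in *Arid1a cKO*, with 422 reads in controls and 338 in *Arid1a cKO* (difference −0.32). The 3 peaks upstream of it, between genes at 31.3 to 125 kb, were higher, by 0.24, 0.27 and 0.74. The last of these (chr12:13066596-13067246) was weak, at 5.98 and 9.99 reads. So the median of the 4 peaks was 0.26 while their summed reads differed by −0.17. The median was −0.04 with protein-coding genes alone, and −0.32 with every peak within 50 kb or with predicted transcripts included. The summed difference was −0.31, −0.33 and −0.32 in these settings. The 250 bases before the start (GRCm38.p6, minus strand, chr12:12941837-12942086), inside the peak with the lower mark, hold 0 matches to the 3 E-boxes.
*Mycn* promoter: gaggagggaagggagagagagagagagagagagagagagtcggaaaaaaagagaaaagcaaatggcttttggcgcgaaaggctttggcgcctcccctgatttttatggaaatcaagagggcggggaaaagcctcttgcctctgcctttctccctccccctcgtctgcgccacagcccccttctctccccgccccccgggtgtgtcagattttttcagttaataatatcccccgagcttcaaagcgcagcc

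No peak of the table was nearest to *Mycl*, on chromosome 4 from 122995931 to 123002485. The closest, 20.8 kb away, was nearest to *Trit1* and had a log2 level of 6.25 in controls and 6.50 in *Arid1a cKO*. The gene *Mycnos* was not analysed here.

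E-boxes were counted over all member peaks. Of the 45 peaks, 41 held at least 1 of the 3 forms, 91.1% (95% Wilson interval 79.3 to 96.5), against 90.3% of all placed peaks. The interval covers counting error alone and takes peaks as independent, while many share a locus and all were chosen by gene name. CAGGTG was in 62.2% of member peaks and 69.3% of all, CACGTG in 20.0% and 28.9%, and CAGATG in 86.7% and 72.9%. Per kb, *Snai1* peaks held 1.98 matches to CAGGTG and *Snai2* peaks 1.43, against 0.776 over all placed peaks. *Mycn* (0.545), *Zeb1* (0.478), *Myc* (0.372), *Zeb2* (0.301) and *Twist1* (0) peaks held fewer. A match is a description of the letters and not a bound site.

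The partners and relatives of these factors were read from lists of genes. The E proteins, which pair with TWIST1, and the ID proteins, which block such pairs, had 47 peaks at 6 of 7 genes, with a median difference of 0.01. *Tcf4*, an E protein gene, had most of them (30 peaks, median 0.03). *Id1* had the highest gene median (0.08) and *Tcf3* the lowest (−1.42, or −1.24 with a mean under 3 reads set to 3). The *Tcf3* value is the midpoint of peaks at −2.88 and 0.05, and its summed reads were 526 in controls and 529 in *Arid1a cKO*. Other TWIST, SNAI and HAND family genes had 20 peaks at 4 of 6 genes, 5 at least 2-fold higher (25.0%, against 4.57% of all placed peaks) and 1 of the 20 lower (against 10.6%). Of the 5 higher peaks, 4 were at *Tcf21*. Their median was 0.35 while their summed reads differed by −0.35, with 5497 in controls and 4300 in *Arid1a cKO*. *Tcf21*, a factor of epicardium and fibroblasts, had 12 peaks with a median of 0.54. The single peak of *Hand2*, a factor of the embryonic ventricle, had 4012 reads in controls and 2702 in *Arid1a cKO* (−0.57). *Twist2*, unlike *Twist1*, was mixed, with 3 peaks above 0 and 2 below, from −2.56 to 1.96 (median 0.19). Its summed reads were 136 in controls and 89.7 in *Arid1a cKO* (−0.60). *Twist2* was chosen after its values were seen.

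The MAX network list held the partner and the antagonists of MYC, and also the related genes *Mlx*, *Mlxip* and *Mlxipl*. It had 34 peaks at 10 of 10 genes, with a median of −0.09. Of these peaks, 7 were at least 2-fold lower (20.6%, against 10.6% of all placed peaks) and 2 higher (5.88%, against 4.57%). *Mlxip*, chosen after its values were seen, gave 3 of the 7 lower peaks. *Max* had most peaks (9, median −0.10), *Mxd3* the highest gene median (0.57) and *Mlxipl* the lowest (−0.78). Of 28 peaks at 18 genes activated by MYC, 1 was at least 2-fold higher (3.57%, against 4.57% of all placed peaks) and 2 lower (7.14%, against 10.6%), with a median of 0.06. The single peak of *Tert*, the telomerase gene, had 53.4 reads in controls and 7.62 in *Arid1a cKO* (−2.81). *Ccnd2*, which encodes cyclin D2, had the highest gene median (0.97, from 2 peaks, the lower at 0.33, with summed reads of 648 and 840, a difference of 0.37), and *Odc1*, of polyamine synthesis, had most peaks (4, median 0.03). Corepressors of ZEB and SNAI had 32 peaks at 8 of 9 genes, 4 at least 2-fold lower (12.5%, against 10.6% of all placed peaks) and 1 higher (3.12%, against 4.57%), with a median of −0.01. *Ctbp2* had most (17 peaks, median 0.04), *Hdac1* the highest gene median (0.58) and *Ajuba* the lowest (−1.49). The *Ajuba* value is the midpoint of peaks at −3.09 and 0.10, and its summed reads were 494 in controls and 483 in *Arid1a cKO*.

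Genes of junctions and matrix that mark epithelial and mesenchymal cells had 80 peaks at 15 of 16 genes, with 3 at least 2-fold higher (3.75%, against 4.57% of all placed peaks), 4 of the 80 lower (against 10.6%) and a median of 0.14. *Cdh2*, which encodes N-cadherin, had most peaks (18, median 0.12), while its summed reads were 3437 in controls and 3260 in *Arid1a cKO* (−0.08). *Krt18*, an epithelial keratin gene, had the highest gene median (0.51) and *Ocln*, a tight junction gene, the lowest (−0.32). *Cdh1*, the E-cadherin gene that SNAI and ZEB proteins repress, had 1 peak, with 20.4 reads in controls and 23.3 in *Arid1a cKO* (0.19). It was chosen after its values were seen.

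Markers of the cell types of the ventricle were measured beside these genes. Cardiomyocyte markers, with 57 peaks at 9 of 10 genes (none at *Actc1*), had summed reads of 18278 in controls and 16940 in *Arid1a cKO* and a median difference of −0.17. This list was mixed, with 19 peaks and 4 of 9 gene medians above 0. *Ryr2* had the highest sum, at 4893 and 4622 reads. Fibroblast markers, with 56 peaks at 10 of 10 genes, were above 0 at 47 of them and in the gene medians of all 10 genes, with summed reads of 3801 and 4882 and a median of 0.35. *Postn* had the highest sum there (686 and 815). Macrophage and leukocyte markers were as one-sided, with 8 of 9 peaks and 5 of 5 gene medians above 0. Both lists were thus higher, as *Snai1*, *Snai2* and *Twist1* were, and their part in those differences was not tested.

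Of the other marker lists given here, the endothelial and the smooth muscle lists were closer to 0 than the fibroblast list. The epicardial median was near that of the fibroblast list, and the macrophage and leukocyte list had few peaks. Endothelial markers had a median of 0.11 over 77 peaks at 10 of 10 genes and summed reads of 19328 and 19673, led by *Kdr* (5370 and 5515). Smooth muscle and pericyte markers had a median of 0.17 over 28 peaks at 8 of 8 genes (summed reads 3596 and 4103, led by *Pdgfrb* at 952 and 1075). Epicardial markers had a median of 0.33 over 17 peaks at 5 of 8 genes, with none at *Upk3b*, *Upk1b* and *Lrrn4* (summed reads 1907 and 2140, led by *Wt1* at 993 and 873). The epicardial list was mixed, with 10 of 17 peaks and 3 of 5 gene medians above 0. Macrophage and leukocyte markers had 9 peaks at 5 of 8 genes, none at *Adgre1*, *Lyz2* and *Fcgr1*, with a median of 0.23 and summed reads of 287 and 365, led by *Spi1* (175 and 203).

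**Figure D4:**
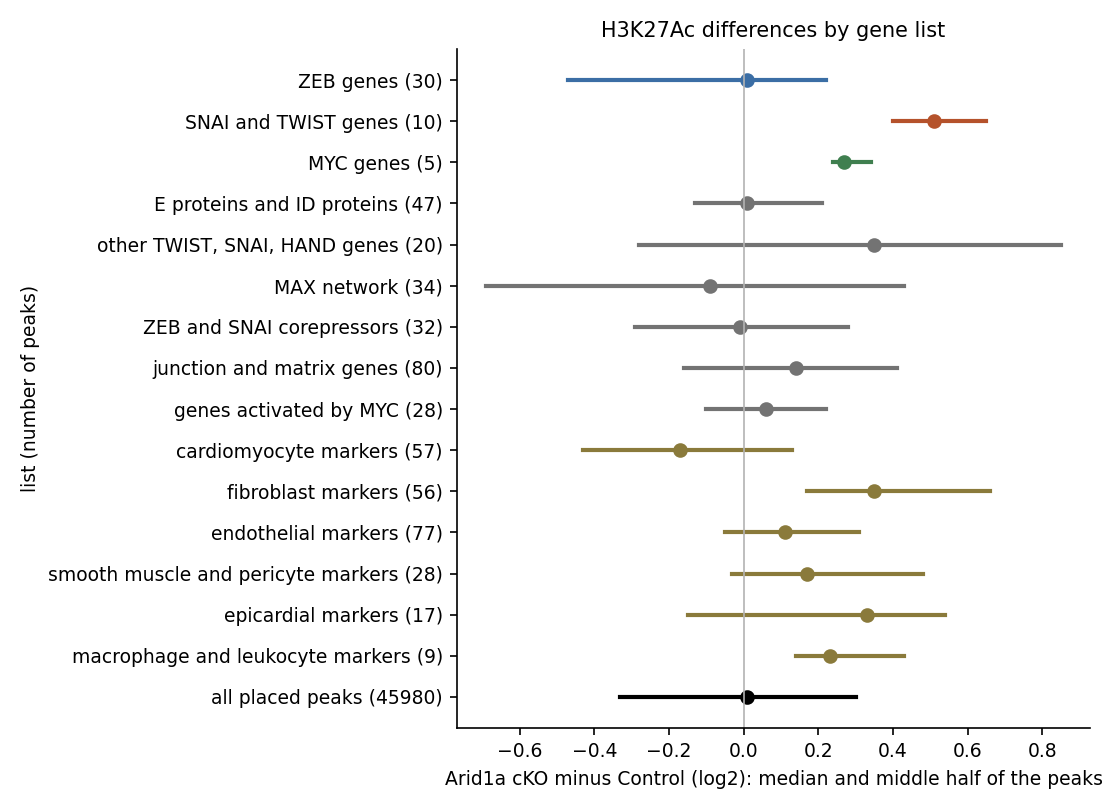
Differences in H3K27Ac (*Arid1a cKO* minus control, log2) by gene list. Points are medians over the peaks of a list and lines run from the lower to the upper quartile. The number of peaks is in parentheses. The SNAI and TWIST genes are *Snai1*, *Snai2* and *Twist1*. The SNAI and TWIST genes (median 0.51), the MYC genes (0.27), the fibroblast markers (0.35) and the macrophage and leukocyte markers (0.23) lie to the right of 0 over the whole line, while all placed peaks are centred at 0.01.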

How the data were processed

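The data are H3K27Ac ChIP-Seq of ventricles at postnatal day 7, from 2 controls and 2 *Arid1a cKO* hearts, grouped by genotype and antibody as labelled. Per the sample records and the study's methods, the authors mapped reads with BWA 0.7.17-r1188 to mm10, called peaks with HOMER in its histone mode against the pooled inputs, required each peak in 2 or more samples, and compared groups with DiffBind 2.12.0 and DESeq2 1.24.0. HOMER is listed as version 4.11 in the sample records, while the methods give an earlier version for peak calling. The deposited values are log2 of the mean normalized read count of a peak, over all hearts and in each group, as made by the authors. Their scaling and the use of the input in them are not given in the sources used here. The authors' columns of fold changes, p-values and FDR were not used. There are no per-sample values, so depth and precision per heart are unknown and no test was run.

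Peak centres were joined to the nearest of 45756 curated RefSeq transcripts' starts (GRCm38.p6, the assembly of mm10), leaving out 7 peaks on unplaced sequences. Called means at least 2-fold between group means. Sums were taken on normalized reads. A group mean at or under 3 reads was treated as a floor. The 3 E-box forms were counted on both strands, and 5 of 8 members, with 8 promoters, matched the RefSeq promoter table; *Zeb1*, *Snai2* and *Myc* did not. The members, the lists of related genes and the marker lists were chosen with earlier results of these data known. Named were all members, their peaks over a start, with the lowest and highest difference and the highest control level, the gene with most peaks and the lowest and highest gene medians of each related list, the gene with the highest control sum of each marker list, and noncoding genes at the members' loci. Any others are marked. Alternatives covered the threshold, centring, a filter on low peaks, the assignment of peaks and the motif window. The steps were tested on simulated data. Python 3.11.15 was used with numpy 2.4.6, pandas 2.3.3, scipy 1.17.1 and matplotlib 3.10.9.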

Additional observations from a re-analysis of the deposited data

How the results depend on the processing

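The count of member peaks at least 2-fold lower (3) and higher (1) depended on the settings. At 1.5-fold they were 5 and 7, where 7957 of all 45980 placed peaks were lower and 5528 higher, and at 4-fold 0 and 1, against 1735 and 299 of all placed peaks. Without peaks at or under a mean level of 18.1 reads they were 1 and 0 of 35 peaks. That filter removed 11559 placed peaks, which held 1907 of all 4878 lower peaks and 1448 of all 2103 higher ones. With protein-coding starts alone the member counts were 7 and 3 of 91 peaks, and with predicted transcripts included 0 and 0 of 17. Within 100 kb they were 1 and 1 of 27, and with every peak within 50 kb 1 and 1 of 26. Centring left both counts as they were. The median difference of 0.21 lay between 0.15 and 0.27 in all 7 alternatives run. The share of peaks with an E-box was 57.8% in the central 500 bp, a shorter window, against 54.6% of all placed peaks, and over whole peaks there were 1.72 matches per kb, against 1.76 in all placed peaks. Of 119 recomputed values of single genes, 6 changed sign, all of them medians of *Zeb1* (−0.09 to −0.37) or *Mycn* (−0.04 to −0.32) under other assignments of peaks; the cause was not tested. Values of *Snai1*, *Snai2*, *Twist1* and *Myc* kept their sign, but the summed difference of *Snai1* (0.45) was 0.17 with every peak within 50 kb, and that of *Myc* (0.34) was 0.10 with protein-coding starts alone. That of *Mycn* (−0.17) lay between −0.33 and −0.31 in 3 of the 4 other assignments and was −0.19 with peaks within 100 kb. No paired analysis was possible because the table holds group means, and leaving out a heart could not be run for the same reason. Without depth, and with the authors' columns of fold changes and p-values not used, no interval of a single peak is given.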
